A study of Mus musculus with 12 samples.

Results

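A set of 9 genes that set or time the caudal end of the body axis was followed through the accessible chromatin of motor neuron differentiation: the caudal homeobox genes Cdx1, Cdx2 and Cdx4, the signals Wnt3a, Fgf8 and Gdf11, the RNA-binding proteins Lin28a and Lin28b, and the orphan nuclear receptor Nr6a1. They were chosen by name, as 9 of 21938 protein-coding genes of the annotation. For each gene, every domain was taken that overlapped a transcription start site (TSS) with 1 kb on each side, here called the promoter, or the gene body with 50 kb on each side, here called the window. Merging the domains of all lists gave 224 regions in the 9 windows, of 218562 in the genome.

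ATAC-seq, which cuts open chromatin with a transposase, had been carried out on mouse embryonic stem cells grown as embryoid bodies (EBs), and the labels gave 12 samples in 6 groups of 2. EBs and progenitors came from the Ainv15(iCre) line, the progenitors after 2 days of retinoic acid (RA, 1 µM) and the Hedgehog agonist SAG (0.5 µM). The other 4 groups had RA and SAG for 4 days. The iHoxc6, iHoxc9 and iHoxc10 groups carried a transgene for a Flag-tagged Hox protein, in the lines Ainv15(iFlag.Hoxc6), Ainv15(iFlag.Hoxc9) and Ainv15(iFlag.Hoxc10), and received doxycycline (Dox, 3 µg/mL) from day 2 for 48 h, while the no Dox control was the Ainv15(iFlag.Hoxc6) line without Dox. Each transgene was 1 integrated, inducible copy per line. All stem cells had been kept in a medium with the GSK3 inhibitor CHIR and the MEK inhibitor PD0325901 before EBs were made.

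Each group had 1 deposited list of domains, made from both of its samples together, with a start and an end per domain and no read count. No spread between samples could be had, no difference below was tested, and read depth is unknown. The number of domains used was 94875 for EBs, 87916 for progenitors, 88806 for no Dox, 91181 for iHoxc6, 63504 for iHoxc9 and 56232 for iHoxc10, so that the shortest lists were those of the posterior Hox proteins. The no Dox list has 6 columns where the others have 3. Cell line, day, calling settings and treatment cannot be told apart where no Dox is compared with progenitors. Nor can line and induced protein where no Dox is compared with iHoxc9 and iHoxc10. No group had Dox without a Hox transgene, so Dox itself cannot be told apart from the induced protein in any induced list. The labels give no day for EBs, so time cannot be told apart from RA and SAG where progenitors are compared with EBs. Calling settings cannot be told apart from treatment in any comparison with no Dox, that of iHoxc6 included. Of 5 pluripotency markers, 5 had a promoter domain in EBs, 3 in progenitors and 2 (Klf4 and Esrrb) in each day 4 list, and Pou5f1 and Nanog had one only in EBs. In turn, all 5 neural progenitor markers had one in every list, and of 5 motor neuron markers only Chat lacked one, in iHoxc9.

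As background, CDX proteins, WNT3A and FGF8 act in the growth zone at the tail of the embryo, where they keep axial progenitors cycling and open the trunk Hox genes. GDF11, a TGF-beta family ligand, ends trunk formation and starts tail formation, and it does so in part by lowering Lin28 and Nr6a1. LIN28A and LIN28B block the maturation of let-7 microRNAs, and NR6A1 is needed for the trunk to reach its full number of vertebrae.

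By promoter domains the 9 genes fell into a set missing from some lists and a set with a domain in each. The number of genes with a promoter domain was 9 for EBs, 8 for progenitors and 6 for no Dox, and it was 4 for iHoxc6, 4 for iHoxc9 and 5 for iHoxc10. Over all protein-coding genes the share was 69.1, 66.5, 65.4, 65.7, 62.9 and 62.5% in the same order. Gdf11, Nr6a1, Lin28a and Lin28b had a promoter domain in all 6 lists, as did 59.7% of genes. The other 5 genes lost theirs in at least 1 list, where 13.4% of genes differed between lists. Cdx1, Cdx2, Cdx4 and Wnt3a had a domain in EBs and in no induced list, a pattern of 4.43% of genes. For 3 of these, Cdx1, Cdx4 and Wnt3a, no Dox had none either, so the absence was not particular to induction. A domain in EBs and in no day 4 list was found for 3.75% of genes. Cdx2 differed from them by a no Dox domain of 44 bp.

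**Figure D1:**
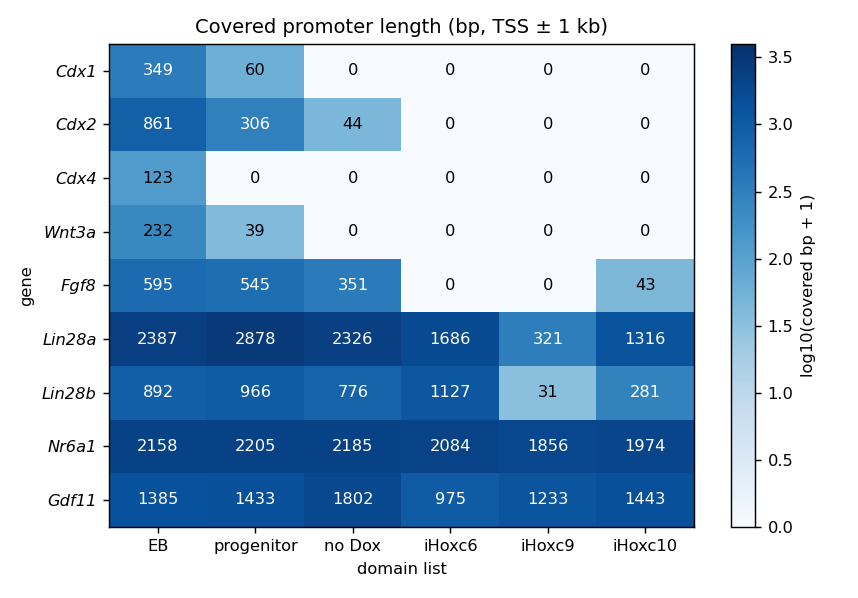
Base pairs of each promoter (TSS with 1 kb on each side) inside domains, for each gene (rows) and list (columns), with colour on a log10 scale of covered bp plus 1. The upper 5 genes reach 0 in at least 1 list, while the lower 4 keep covered length in every list, down to 31 bp for Lin28b in iHoxc9.

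Cdx2, which encodes a homeodomain protein that activates trunk Hox genes, had the widest EB domains of the Cdx genes. Its covered promoter length was 861 bp in EBs, 306 bp in progenitors, 44 bp in no Dox and 0 in iHoxc6, iHoxc9 and iHoxc10. The EB domain of 822 bp (chr5:147306631-147307452) ran from -182 to 639 bp relative to the TSS. In progenitors 125 bp of it were left, and the 44 bp domain of no Dox stood at 99.9% of the way down its list, which was ordered by a criterion that is not stated. The letters of the Cdx2 promoter are shown because the EB list was the sole list to cover them. The 250 bases before the RefSeq start (GRCm38.p6, chr5:147307250-147307499, minus strand) are printed with the 203 bases inside the EB domain in capitals.
Cdx2: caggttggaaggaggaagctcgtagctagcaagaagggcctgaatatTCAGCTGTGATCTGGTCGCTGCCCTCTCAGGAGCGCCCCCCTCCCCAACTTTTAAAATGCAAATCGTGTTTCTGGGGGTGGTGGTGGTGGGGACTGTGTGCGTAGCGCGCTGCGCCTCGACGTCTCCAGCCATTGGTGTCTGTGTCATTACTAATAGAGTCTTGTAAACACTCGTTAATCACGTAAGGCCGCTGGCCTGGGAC

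Cdx1 and Cdx4 act beside Cdx2 in the same tissue. Cdx1 had 349 covered bp in EBs and 60 bp in progenitors, and its promoter was in no domain at day 4. These were different stretches: the EB domain lay from 117 to 465 bp downstream of the TSS and the progenitor domain from 599 to 658 bp downstream. An intronic Cdx1 region of 289 bp had 229 bp in EBs, 219 bp in progenitors and 0 in the 4 day 4 lists. Cdx4 had a domain of 123 bp in EBs, from 404 to 526 bp downstream of the TSS, and none in the other 5 lists. All 3 Cdx promoters were therefore without a domain in every induced list.

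Wnt3a, the WNT ligand of the growth zone, resembled Cdx1 in its promoter. It had 232 bp in EBs, 39 bp in progenitors and 0 in each day 4 list, again in places that did not overlap. The EB domain (chr11:59290829-59291060) lay upstream of the TSS and the progenitor domain 903 bp or more downstream. The 250 bases before the RefSeq start (GRCm38.p6, chr11:59290752-59291001, minus strand) are shown for comparison with Cdx2, with the 173 bases inside the EB domain in capitals.
Wnt3a: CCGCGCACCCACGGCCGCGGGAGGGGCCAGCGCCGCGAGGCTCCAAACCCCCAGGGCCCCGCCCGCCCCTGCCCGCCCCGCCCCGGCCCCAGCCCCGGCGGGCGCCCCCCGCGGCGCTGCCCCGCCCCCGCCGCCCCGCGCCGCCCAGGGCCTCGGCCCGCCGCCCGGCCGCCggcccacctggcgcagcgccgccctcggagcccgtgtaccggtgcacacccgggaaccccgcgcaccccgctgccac
No other list covered any of these bases. Their GC content was 87.6%, against 55.2% for Cdx2, and they held 41 CpG dinucleotides against 13.

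Fgf8, the FGF ligand that holds caudal progenitors undifferentiated, kept its promoter domain longest among the 5 genes. Covered length was 595 bp in EBs, 545 bp in progenitors, 351 bp in no Dox, and among the induced lists only iHoxc10 had any, with 43 bp. The widest region (chr19:45742653-45743425) thus remained in no Dox and was absent from 2 of 3 induced lists. In no Dox the main domain no longer reached the TSSs and lay from -505 to -194 bp relative to the nearest. A region from -3868 to -3224 bp (chr19:45746139-45746783) was held by all 6 lists with 482, 302, 307, 145, 38 and 16 bp from the EB list to the iHoxc10 list in the order above. Both Fgf8 regions were therefore narrower in each induced list than in no Dox.

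**Figure D2:**
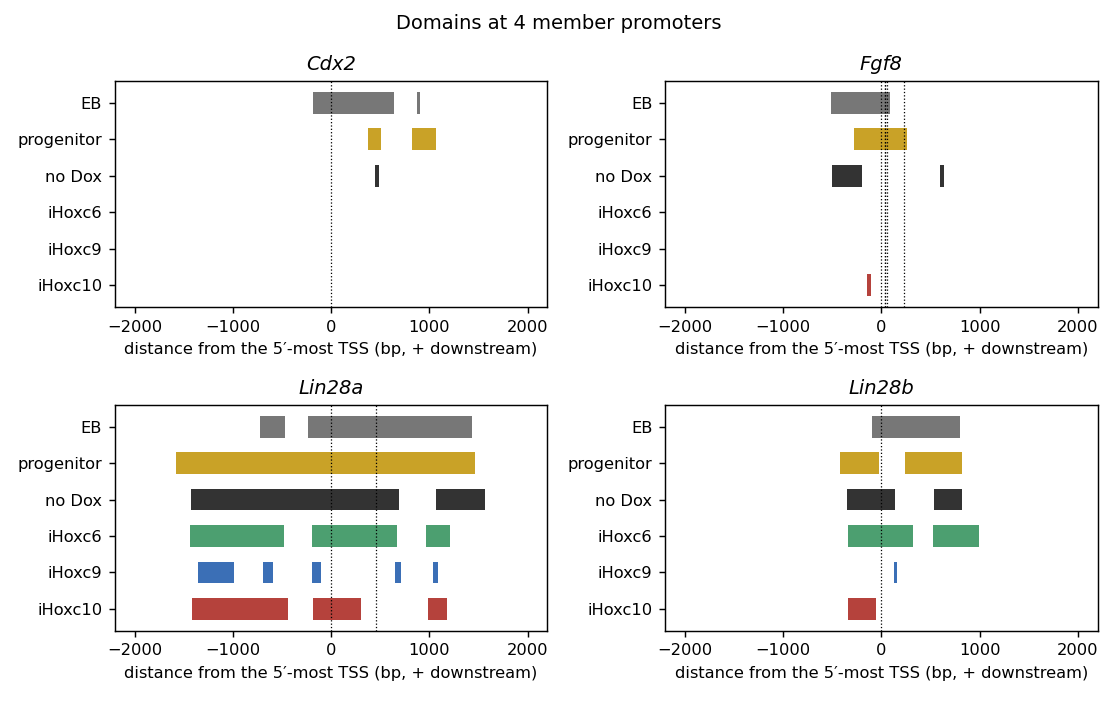
Domains (bars) of each list around the 5′-most TSS of Cdx2, Fgf8, Lin28a and Lin28b, in bp along transcription, with dotted lines at TSSs. Cdx2 has no bar in the induced lists, and the Lin28a bars of iHoxc9 are short pieces that together cover 321 bp of promoter.

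Lin28a and Lin28b, the blockers of let-7 maturation, had promoter domains in all lists, with the shortest cover in iHoxc9. For Lin28b in iHoxc9 this rests on 1 domain of 31 bp, which was gone with domains of at least 150 bp, an overlap of 50 bp or lists of equal length. Covered Lin28a promoter length was 2387 bp in EBs, 2878 bp in progenitors, 2326 bp in no Dox, 1686 bp in iHoxc6, 321 bp in iHoxc9 and 1316 bp in iHoxc10. The iHoxc9 length was 0.138 times that of no Dox. A single progenitor domain of 3046 bp spanned the main Lin28a promoter (chr4:134017281-134020422), and in iHoxc9 the same stretch held 5 domains of 45 to 364 bp. An additional TSS farther into the gene had a region (chr4:134011655-134012267) with 461 bp in EBs, 418 bp in progenitors, 109 bp in no Dox and 0 in the 3 induced lists. Another region of that promoter, 142 bp wide (chr4:134013191-134013332) had 134 bp in no Dox, 45 bp in iHoxc6, 69 bp in iHoxc10 and 0 in the other lists. The start of the noncoding transcript Gm13061 lies in the main promoter region, and ATAC-seq does not separate the 2 genes there.

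The 250 bases before the RefSeq start of Lin28a (GRCm38.p6, chr4:134018817-134019066, minus strand) are shown because cover within them varied between induced lists, with 250 bp in EBs, progenitors and no Dox, 224 bp in iHoxc6, 99 bp in iHoxc9 and 209 bp in iHoxc10. Capitals mark the 99 bases still inside a domain in iHoxc9.
Lin28a: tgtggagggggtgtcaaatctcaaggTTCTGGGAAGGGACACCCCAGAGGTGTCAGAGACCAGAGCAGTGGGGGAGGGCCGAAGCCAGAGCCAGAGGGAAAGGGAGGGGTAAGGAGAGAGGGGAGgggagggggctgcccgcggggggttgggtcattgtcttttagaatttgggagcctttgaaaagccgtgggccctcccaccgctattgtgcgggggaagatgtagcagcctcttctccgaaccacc

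The Lin28b promoter had 892 covered bp in EBs, 966 bp in progenitors, 776 bp in no Dox, 1127 bp in iHoxc6, 31 bp in iHoxc9 and 281 bp in iHoxc10 at the TSS of its coding transcript. The iHoxc9 length was 0.0399 times that of no Dox, while iHoxc6 exceeded no Dox. At the 5′ end of its gene record, 16194 bp farther upstream, the lengths were 1304, 1254, 1693, 1485, 1331 and 1330 bp in the same order. The low iHoxc9 value was thus at 1 of 2 Lin28b start sites. The 250 bases before the RefSeq start (GRCm38.p6, chr10:45470202-45470451, minus strand) are shown because the iHoxc9 list covered none of them, with the 195 bases inside the iHoxc10 domain in capitals.
Lin28b: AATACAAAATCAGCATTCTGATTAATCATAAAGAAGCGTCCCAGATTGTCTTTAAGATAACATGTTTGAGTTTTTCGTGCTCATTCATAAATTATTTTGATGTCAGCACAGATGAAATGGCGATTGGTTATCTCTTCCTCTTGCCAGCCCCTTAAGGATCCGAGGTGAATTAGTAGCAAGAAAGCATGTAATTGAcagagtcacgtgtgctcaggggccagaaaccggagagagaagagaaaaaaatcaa
EBs covered 95 of these bases, progenitors 224, and no Dox and iHoxc6 all 250. They contain TGATTNAT, a composite PBX and HOX site, in 2 overlapping matches on opposite strands between positions -232 and -223 relative to the start. That motif occurred in 2.82% of the 32851 RefSeq promoters of this length, and none of the other motifs searched was in these bases.

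Gdf11, the ligand that ends trunk formation, and Nr6a1, the trunk nuclear receptor, kept wide promoter domains in every list. The Gdf11 promoter had 1385 bp in EBs, 1433 bp in progenitors, 1802 bp in no Dox, 975 bp in iHoxc6, 1233 bp in iHoxc9 and 1443 bp in iHoxc10. An intronic Gdf11 region (chr10:128888842-128889734) had between 590 and 873 bp in every list. Nr6a1 had 2158, 2205, 2185, 2084, 1856 and 1974 covered promoter bp in the order of the lists, so that the lowest value, in iHoxc9, was 0.849 times no Dox. The 250 bases before the RefSeq start of Gdf11 and before the upstream RefSeq start of Nr6a1 were covered whole in all 6 lists. Before the downstream Nr6a1 start, 0, 40, 34, 0, 0 and 39 of 250 bases were covered.

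Across all genes, the share with a lost promoter domain, of those that had one, was 6.37% for progenitors against EBs, 4.2% for no Dox against progenitors, and 3.03, 5.68 and 5.9% for iHoxc6, iHoxc9 and iHoxc10 against no Dox. The members lost in these steps were Cdx4 (1 of 9), Cdx1 and Wnt3a (2 of 8), Cdx2 and Fgf8 (2 of 6), Cdx2 and Fgf8 again (2 of 6), and Cdx2 (1 of 6). Of the 0, 1, 3, 3 and 3 members without a promoter domain in the first list of each comparison, none gained one, so that no gain was possible from EBs to progenitors. The shares of genes that gained one, of those without, were 5.9, 5.02, 6.69, 3.44 and 2.69%. The Cdx1 and Wnt3a losses rest on progenitor domains of 60 and 39 bp, and with promoters of 0.5 kb on each side or domains of at least 150 bp neither gene had one in progenitors. The Cdx2 loss in the induced lists rests on the 44 bp domain of no Dox, and with only domains of at least 150 bp Cdx2 was already without one there. The Cdx4 loss rests on an EB domain of 123 bp, and with only domains of at least 150 bp Cdx4 had none in EBs. Fgf8 was not called lost in iHoxc10 through a domain of 43 bp, which did not count with an overlap of 50 bp. The iHoxc6, iHoxc9 and iHoxc10 comparisons share the no Dox list.

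Covered promoter length fell at least 2-fold from EBs to progenitors at Cdx1, Cdx2, Cdx4 and Wnt3a (4 of 9, background 11.2%), and from progenitors to no Dox at Cdx1, Cdx2 and Wnt3a (3 of 8, background 7.69%). Against no Dox it was at least 2-fold lower at Cdx2 and Fgf8 in iHoxc6 (2 of 6, background 8.78%), at Cdx2, Fgf8, Lin28a and Lin28b in iHoxc9 (4 of 6, background 25.3%), and at Cdx2, Fgf8 and Lin28b in iHoxc10 (3 of 6, background 16.6%). No member was at least 2-fold higher in any of the 5 comparisons, where 9.45, 6.94, 5.56, 2.68 and 2.64% of genes were.

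Over whole windows, summed covered length was 36537 bp in EBs, 37699 bp in progenitors, 40815 bp in no Dox, 33243 bp in iHoxc6, 21454 bp in iHoxc9 and 28258 bp in iHoxc10, in 118, 111, 114, 103, 80 and 68 domains. Mean covered length per domain was 310, 340, 358, 323, 268 and 416 bp. Against no Dox the sums were 0.814, 0.526 and 0.692 times as long in iHoxc6, iHoxc9 and iHoxc10, the median ratios over the 9 genes were 0.837, 0.416 and 0.652, and those over all genes were 0.820, 0.594 and 0.689. From EBs to progenitors and on to no Dox the sums changed 1.03 and 1.08 times, beside medians of 1.10 and 1.08 over the 9 genes and 1.05 and 1.12 over all genes.

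Windows also take in promoters of neighbouring genes. In no Dox, domains at those promoters held 0 of 1704 bp at Cdx1, 272 of 1766 bp at Cdx2 and 2586 of 6058 bp at Lin28a. They held 799 of 5568 bp at Lin28b and 4791 of 6753 bp at Wnt3a. At Cdx1 only 37 of the 1704 bp lay in the gene body and 0 at its promoter. The rest lay in flanks that take in Camk2a, Slc6a7 and Pdgfrb. A change in any of these windows therefore need not lie at the named gene. Window length fell at least 2-fold in iHoxc9 at Cdx1, Cdx2, Lin28a, Lin28b and Wnt3a (5 of 9), as it did for 28.6% of genes. In iHoxc10 it did so at Cdx2 (1 of 9, background 15.9%), whose window had 1766 bp in no Dox and 397 bp in iHoxc10. No member window fell 2-fold in the other comparisons, where 9.68, 5.32 and 5.1% of genes did, although Cdx1 came close from EBs to progenitors with 2522 and 1268 bp. The sole 2-fold rise was at Cdx4 from EBs to progenitors, from 471 to 970 bp (1 of 9, background 5.95%). None rose in the later comparisons, where 5.72, 4.11, 2.46 and 1.48% of genes did. The Cdx4 rise came mostly from a progenitor domain of 425 bp (chrX:103287311-103287735) that lies inside the processed pseudogene Gm19200. Reads of a pseudogene can belong to the gene it was copied from, so this value is uncertain.

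**Figure D3:**
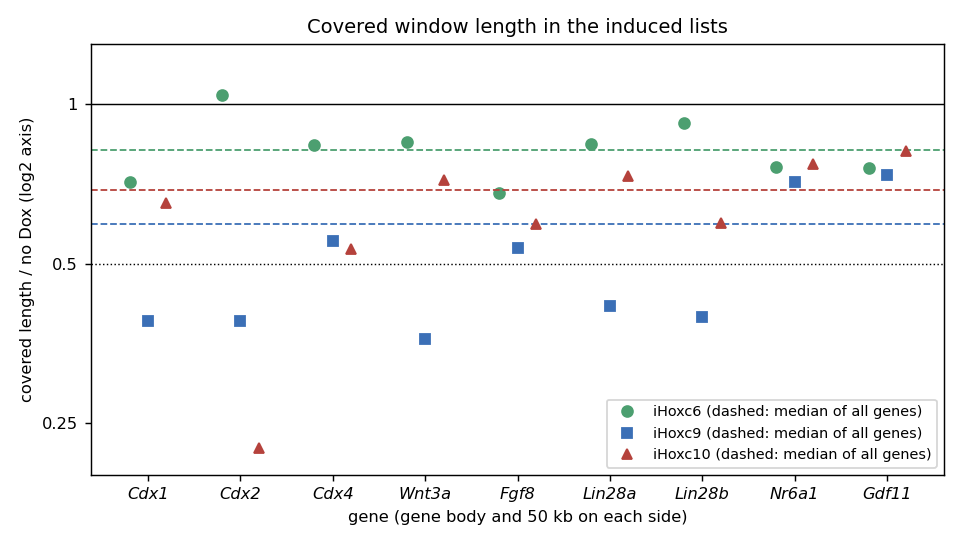
Covered length of each window (gene body with 50 kb on each side) in iHoxc6 (circles), iHoxc9 (squares) and iHoxc10 (triangles) divided by that in no Dox, on a log2 axis, with dashed lines at the medians of all genes (0.820, 0.594 and 0.689). Cdx2 stands lowest, in iHoxc10, and 5 iHoxc9 squares lie below 0.5.

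Away from the promoters, 1 intronic region of Nr6a1 was held by the 3 induced lists and no other. A stretch of 602 bp in an Nr6a1 intron (chr2:38881043-38881644), 44573 bp downstream of the nearest TSS, was in no domain of EBs, progenitors or no Dox. It held 148 bp in iHoxc6, 578 bp in iHoxc9 and 602 bp in iHoxc10. In iHoxc6 these were 2 domains of 38 and 110 bp, and in iHoxc9 and iHoxc10 1 domain each. With domains of at least 150 bp, only iHoxc9 and iHoxc10 held the region. It was the sole member region held by the 3 induced lists and no other (1 of 224, or 0.446%), near the 0.311% of all regions. Of those 679 regions in the genome, 49 were at least as wide, and their median width was 301 bp.

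The central 300 bases of the overlap between the iHoxc9 and iHoxc10 domains (GRCm38.p6, chr2:38881206-38881505, plus strand) are printed. They were chosen because no other region of these genes was held by exactly the 3 induced lists. The TGATTNAT match on the minus strand is in capitals.
Nr6a1 intron: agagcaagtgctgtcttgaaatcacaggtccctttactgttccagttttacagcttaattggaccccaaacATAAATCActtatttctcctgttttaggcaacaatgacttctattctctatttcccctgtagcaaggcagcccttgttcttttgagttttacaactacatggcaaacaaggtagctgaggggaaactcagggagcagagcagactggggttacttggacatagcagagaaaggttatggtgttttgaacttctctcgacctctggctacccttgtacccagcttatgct
TGATTNAT was found in the central 300 bp of 5.83% of all regions and of 11.8% of the 679 regions of the induced lists only. The posterior HOX motif TTTATNG had no match in these 300 bases and 1 match elsewhere in the 602 bp. It was found in the central 300 bp of 14.2% of all regions and 41.7% of the 679. For both motifs the sets compared are unlike in more than induction. Each of the 679 is held by 3 lists, while 63.7% of all regions were held by 1 list. What lies behind the gap was not tested. Both strands were searched, and binding at these letters was not tested.

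Other Nr6a1 regions were held before Dox. The intronic region chr2:38825079-38825675 was absent in EBs and had 558 bp in progenitors, 596 bp in no Dox, 552 bp in iHoxc6, 546 bp in iHoxc9 and 561 bp in iHoxc10. Beside it, chr2:38822896-38824475 spans the start of the antisense transcript Nr6a1os, and it had 169 bp in EBs, 403 bp in progenitors, 1473 bp in no Dox, 1050 bp in iHoxc6, 763 bp in iHoxc9 and 1142 bp in iHoxc10. The intronic region chr2:38782177-38782918 had 145 bp in EBs, 401 bp in progenitors, 742 bp in no Dox, 69 bp in iHoxc6, 0 in iHoxc9 and 239 bp in iHoxc10. All 3 regions were widest in no Dox.

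Lin28b gained a pair of intronic regions after the EB stage. The wider (chr10:45410158-45411175) had 0 in EBs, 494 bp in progenitors, 1015 bp in no Dox, 1018 bp in iHoxc6, 209 bp in iHoxc9 and 360 bp in iHoxc10. Its neighbour (chr10:45411638-45412375) had 0, 205, 548, 595, 0 and 326 bp in the same order. In both, no Dox and iHoxc6 were of nearly equal length, and iHoxc9 was lowest of the day 4 lists.

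**Figure D4:**
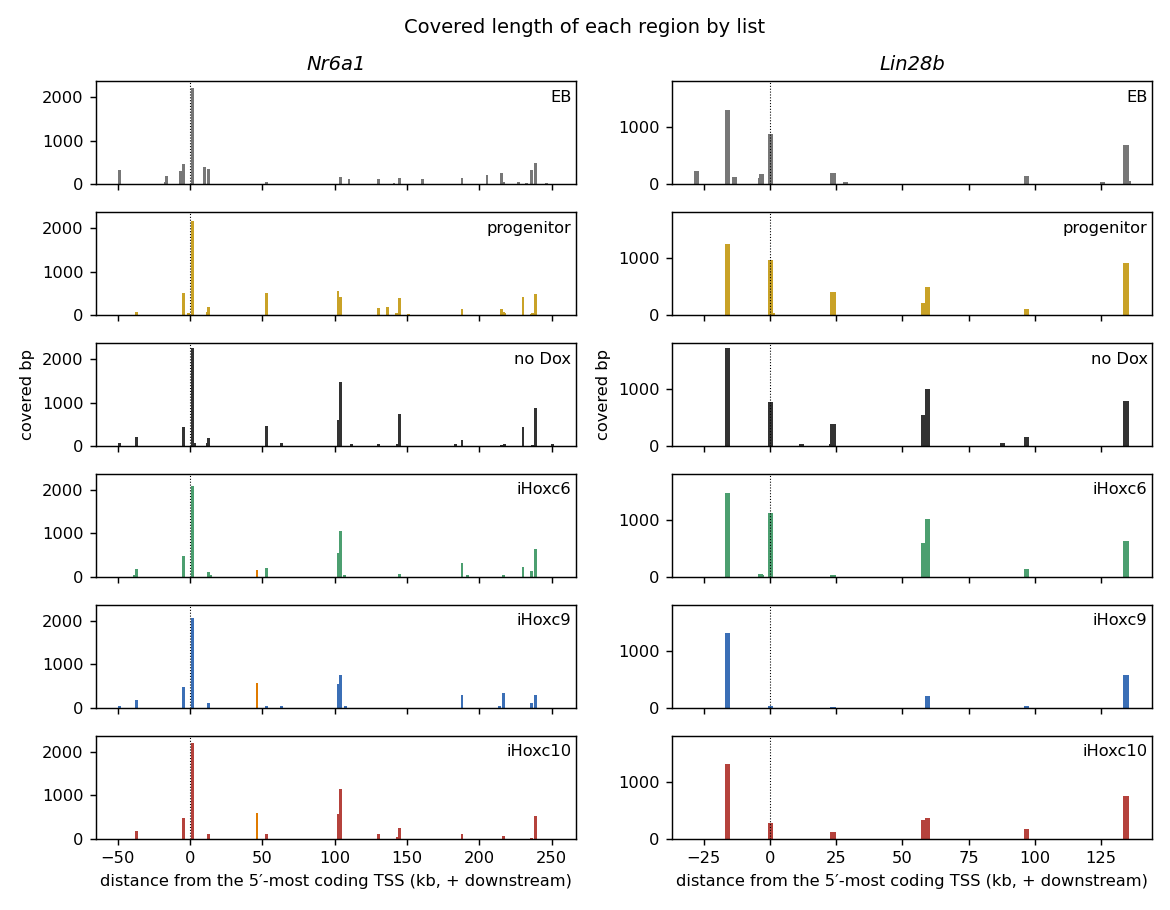
Covered bp of each region in the Nr6a1 and Lin28b windows by list (rows), placed by distance in kb from the 5′-most coding TSS, with the induced-only Nr6a1 region in orange. The orange bar appears in the 3 induced lists with 148, 578 and 602 bp.

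Regions of the other genes varied between lists in several ways. Downstream of Wnt3a, chr11:59238885-59239600 had 0 in EBs, 95 bp in progenitors, 716 bp in no Dox, 668 bp in iHoxc6, 57 bp in iHoxc9 and 520 bp in iHoxc10. Upstream of Cdx2, within the neighbouring gene Flt3, chr5:147348028-147348372 had 304 bp in progenitors, 345 bp in no Dox and 103 bp in iHoxc6, and none in EBs, iHoxc9 or iHoxc10. Downstream of Cdx2, chr5:147299103-147299923 was held by all 6 lists, with 664, 798, 651, 585, 237 and 133 bp. Downstream of Fgf8, chr19:45717560-45717948 was absent in EBs and had 372, 123, 125, 130 and 190 bp in the later lists. Upstream of Gdf11, chr10:128895332-128896325 was held by all 6 lists with 759, 211, 420, 439, 153 and 192 bp, and the widest Gdf11 region missing from some list was 257 bp.

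Counted over all 224 regions, 42 were held by all 6 lists (18.8%, against 11.2% in the genome) and 131 by 1 list (58.5% against 63.7%). Of 72 regions held by both progenitors and no Dox, iHoxc6 lacked 11 (15.3%), iHoxc9 20 (27.8%) and iHoxc10 19 (26.4%). In the genome these shares were 11.7, 27.5 and 26.6%, close to those of the members. Within 200 bp centred on each region, the CDX-type and posterior HOX motif TTTATNG was found in 7.14% of member regions and 9.54% of all regions, the TCF and LEF motif CTTTGAT in 3.12 and 2.97%, and the nuclear receptor motif AGGTCA in 10.7 and 14.4%. A direct repeat of 2 AGGTCA copies without a gap, the kind of site NR6A1 binds, was within the 200 bp around 1 member region, a no Dox domain of 23 bp downstream of Wnt3a (0.446%, against 0.016% of all regions), and TGATTNAT was in 2.68 and 4.08%.

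Other genes of the same pathways were counted by the same rule. Of 20 axial progenitor genes, 18 had a promoter domain in EBs, 17 in progenitors and 14 in no Dox, and the iHoxc6, iHoxc9 and iHoxc10 lists had 13, 11 and 12 of them. Presence differed between lists for 9. The first 6 by alphabet were Evx1, Fgf4, Lef1, Msgn1, Nkx1-2 and Sp5. Fgf4, an FGF ligand of stem cells, had 717 bp in EBs, 277 bp in progenitors and 0 at day 4. Sp5, a target of WNT signalling, had 244, 254, 430, 45, 0 and 0 bp in the order of the lists. Lef1, a transcription factor of the WNT pathway, had 1452, 1219, 1518, 970, 0 and 561 bp. Msgn1 had 23 bp in EBs alone, Nkx1-2 76 bp in progenitors alone and Evx1 42 bp in no Dox alone, so these 3 calls rest on narrow domains.

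Among 18 FGF signalling genes only Fgf17 differed, with 260 bp in EBs, 31 bp in progenitors, 30 bp in no Dox and 0 in the induced lists. Of 16 genes of GDF11 signalling, Fstl3, Mstn, Wfikkn1 and Wfikkn2 differed, and Wfikkn1, which encodes a GDF11 antagonist, had 169, 979, 820, 693, 0 and 689 bp. Mstn had 0, 0, 44, 203, 3 and 0 bp, so it was present only at day 4 and by 3 bp in iHoxc9. Fstl3 had 224 bp in EBs and 84 bp in no Dox alone, and Wfikkn2 43 bp in progenitors and 89 bp in no Dox alone. The calls of these genes thus rest in part on short cover. All 13 genes of the LIN28 and let-7 list had a promoter domain in every list. Of 13 RA and nuclear receptor genes, Crabp1, Cyp26a1, Cyp26c1 and Nr5a1 differed. Crabp1 lacked a domain in no Dox alone. Cover was short for Cyp26c1, with 39 bp in EBs alone. For Nr5a1 it was 259, 139, 32, 0, 34 and 0 bp. Cyp26a1, which encodes an enzyme that degrades RA, had 55 bp in EBs, 854 bp in progenitors, 510 bp in no Dox, 92 bp in iHoxc6 and 0 in iHoxc9 and iHoxc10.

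**Figure D5:**
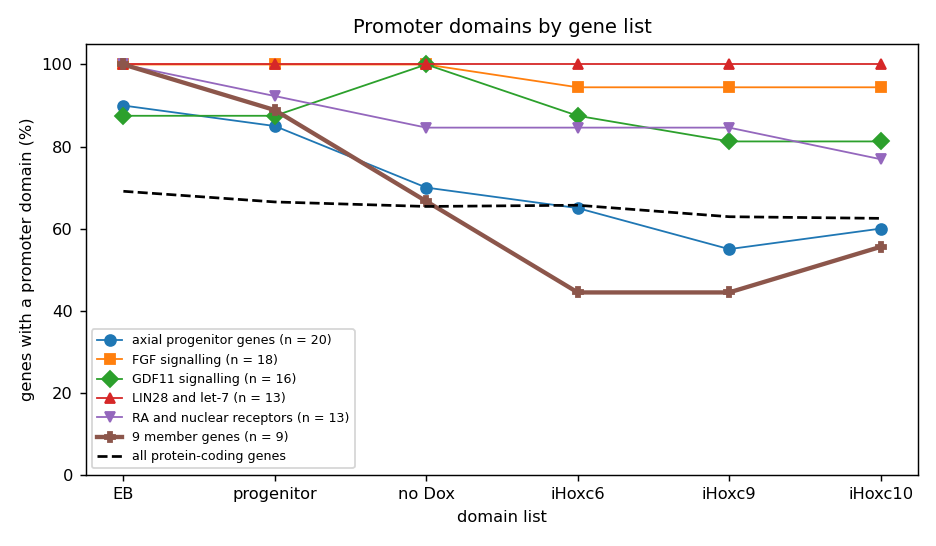
Percentage of genes with a promoter domain in each list for the 9 genes, 5 pathway lists and all protein-coding genes (dashed). The 9 genes go from 9 in EBs to 4 in iHoxc6 and iHoxc9, while the LIN28 and let-7 list stays at 13 of 13.

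The presence pattern of Cdx2 over the 6 lists was shared by 86 genes, and by covered promoter length the nearest were Cavin1 and Rnf144b. That of Cdx1 and Wnt3a was shared by 169 genes, with CK137956 and Chst13 nearest to Cdx1 and Fetub and Nid1 nearest to Wnt3a. The EB-only pattern of Cdx4 was shared by 652 genes, with Gm14406 and Gm47959 nearest. The pattern of Fgf8 was shared by 20 genes.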

How the data were processed

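Paired-end ATAC-seq reads had been mapped by the authors to mm10 with Bowtie2 2.2.2, accessible domains had been called with DomainFinder, and the submitters' processing notes also name Picard 2.8.2. The deposited lists hold the start and end of each domain in bp, called on both replicates together, with no count, height or p-value, and the additional columns of the no Dox list are constant. Starts were read as in BED and printed counting from 1, and an offset of 1 bp is possible, since the files do not state the base.

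Genes and TSSs of protein-coding transcripts came from GENCODE M21, and only the 19 autosomes, X and Y were searched for domains. A domain counted at a promoter with an overlap of 1 bp or more, and a change was called at 2-fold covered length. Regions were domains of the 6 lists merged where they overlapped. Sequences came from RefSeq (GRCm38.p6); 7 of the 9 genes had a promoter in the table used (not Cdx1 and Fgf8). Pathway genes with differing presence were named up to 6 a list by alphabet. Regions missing from some list were named from the widest 4 of each gene, and not all of those were named. At Cdx2, for example, a region of 635 bp missing from iHoxc10 alone and one of 538 bp in EBs alone were left out. The Nr6a1os region, regions described as held by all 6 lists, the Lin28a region of 142 bp and motif shares in induced-only regions were chosen after values were seen. The genes nearest to Fgf8 by promoter pattern are not reported here. The genes and lists were chosen with earlier results of these data known. Interval code was tested on simulated data. Python 3.11.15, NumPy 2.4.6, pysam 0.24.0, samtools 1.23.1 and Matplotlib 3.10.9 were used.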

Additional observations from a re-analysis of the deposited data

How the results depend on the processing

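No paired analysis was possible because the replicates of a group were pooled before domains were called, and no replicate could be left out for the same reason. Of 158 alternative values for 24 results, 138 stayed within 1.5 times the reported value. A count of 0 that stayed 0 was among them. Only ratios could change direction, and none did, while counts could not by their definition. Counts of windows that fell at least 2-fold were small. With a 10 kb flank they were 2 from EBs to progenitors (reported 0), 1 from progenitors to no Dox (0), 2 in iHoxc6 (0) and 3 in iHoxc10 (1). With domains of at least 150 bp they were 1 from EBs to progenitors and 2 in iHoxc10. Without domains at other genes' promoters they were 1 in no Dox, 1 in iHoxc6, 6 in iHoxc9 (reported 5) and 2 in iHoxc10. The 2-fold rise at Cdx4 was not called with flanks of 10 or 100 kb (0 windows). Of alternatives chosen after seeing the data, lists cut to equal length in deposited order gave 1 fall from EBs to progenitors, and progenitors as the reference gave 2 falls in iHoxc10. In each case the cause was not tested. Genes with a promoter domain ranged over the alternatives from 8 to 9 in EBs, 6 to 8 in progenitors and 5 to 7 in no Dox. They ranged from 3 to 4 in iHoxc9 and 4 to 5 in iHoxc10, and stayed at 4 in iHoxc6. The Lin28b ratio of iHoxc9 to no Dox was 0.786 at the 5′ end of the gene record and 0 in lists of equal length or with domains of at least 150 bp. The Lin28a ratio was between 0.00624 and 0.229. The Nr6a1 region was held by 3 lists when all lists had equal length, and by 2 with domains of at least 150 bp. Pooled lists without depth limit every statement to the presence and width of called domains.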
